A study of Mus musculus with 12 samples.

Results

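Cytosolic ribosomal protein genes were followed across 12 subcutaneous tumors. The members were the genes of the deposited table whose symbol starts with Rpl or Rps and a digit, together with Rplp0, Rplp1, Rplp2 and Rpsa, without rows named as pseudogenes (-ps) and without the Rps6k kinases. This rule gave 89 of 14496 genes: 31 of the small subunit, 41 of the large subunit, 3 of the P stalk and 14 paralogs, retrocopies or other genes that share the symbol. The tumors were grown from Renca, a mouse renal carcinoma cell line, injected under the skin of BALB/C mice and taken on day 14. In 6 of them (IK1 to IK6) another tumor, which the series calls immunosuppressive, was growing inside the kidney at the same time, and the other 6 (SC1 to SC6) grew without one. The study asked how the transcriptome of the subcutaneous tumor differs between the 2 situations. All 12 were whole tumors of tumor and stroma cells, and no genetic change or drug was named for either group. The labels did not tie tumors to individual mice, so p-values measure the spread between these 12 samples.

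Each cytosolic ribosome contains a small subunit, which decodes the mRNA, and a large subunit, which forms the peptide bond. Their proteins are made in near equal amounts, and most of their mRNAs begin with a run of pyrimidines, the TOP motif, through which mTORC1 and the protein LARP1 set how strongly they are translated. Growing tumor cells spend much of their RNA and protein synthesis on ribosomes. A few paralogs, such as Rpl39l and Rpl3l, are known in mouse for their restriction to testis or muscle.

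Reads recovered from the deposited values came to 53312559 to 66142468 per tumor, so that counting error was small for all but the lowest members. Among markers of the cell types a whole tumor can hold, T and cytotoxic cell genes were lower on average in the IK tumors (12 of 12 genes), with mean levels over the list of -0.41 to 3.17 log2 CPM in the IK tumors and 0.58 to 3.39 in the SC tumors. Myeloid genes were lower in 12 of 13, fibroblast genes in 9 of 9, endothelial genes in 7 of 7 and fat cell genes in 4 of 4, while red cell genes were higher in 5 of 5. Skeletal muscle genes were split 6 to 6, and their mean level ran from -1.89 in SC6 to 4.92 in SC5. Of 7 epithelial tumor cell genes, 6 had a lower mean in the IK tumors, with a median difference of -0.07. Among them, the kidney-epithelial genes Pax8 and Cdh16 were well expressed in both groups. Pax8 had 6.57 ± 0.10 and 6.70 ± 0.14, and Cdh16 had 9.88 ± 0.08 and 10.01 ± 0.22 (IK then SC, log2 CPM, SD, n = 6 each). None of these differences passed an adjusted p of 0.05, and the part of the cell mixture in the values below was not tested. In whole tumors, fewer cells of a type and less RNA per cell cannot be told apart.

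The ribosomal protein genes did not separate the groups. They took 1.54% to 2.08% of all reads in the IK tumors (median 1.87%, mean 1.85% ± 0.172, SD, n = 6) and 1.77% to 1.92% in the SC tumors (median 1.86%, mean 1.85% ± 0.0557, n = 6). The SC range lay inside the IK range. Of the 89 members, 87 passed the filter on low values (a log2 CPM of 0 or more in 6 or more of the tumors); Rpl3l and Rps12l1 did not and are described by their values alone. None of the 87 passed an adjusted p of 0.05 (limma, Benjamini-Hochberg over 14008 genes), against a background of 0% of all tested genes. At an unadjusted p under 0.05 there were 2 members, or 2.30%, where all genes gave 11.5%. Both were lower in the IK tumors, as were 5.62% of all genes, and 0 members were higher, as were 5.86%. Those 2 were the paralogs Rpl39l and Rps4l.

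Gene by gene, the mean was higher in the IK tumors for 38 members and lower for 49, where 46.7% of all tested genes were lower. The median difference, IK minus SC, was -0.0062 on the log2 scale, as against 0.0074 over all tested genes. The 75 canonical genes, at 3.78 to 1011 mean CPM, had differences from -0.15 (Rps29) to 0.09 (Rps6), and their intervals reached at most from -0.36 to 0.24. For 83 of the 87 members the difference was within 0.1 of 0, as against 9175 of all 14008 tested genes. For 55 members the whole 95% interval lay within 0.2 of 0. The members' intervals were not narrower than those of other genes, with a median half-width of 0.149 as against 0.141 over all tested genes. For 85 members the interval held 0. No member had all IK tumors below all SC tumors or all above, which 0.2% and 0.278% of tested genes had. The median shifted with IK2 and IK3, the tumors of highest and lowest level: it was -0.04 without IK2, 0.05 without IK3 and 0.02 without both.

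**Figure D1:**
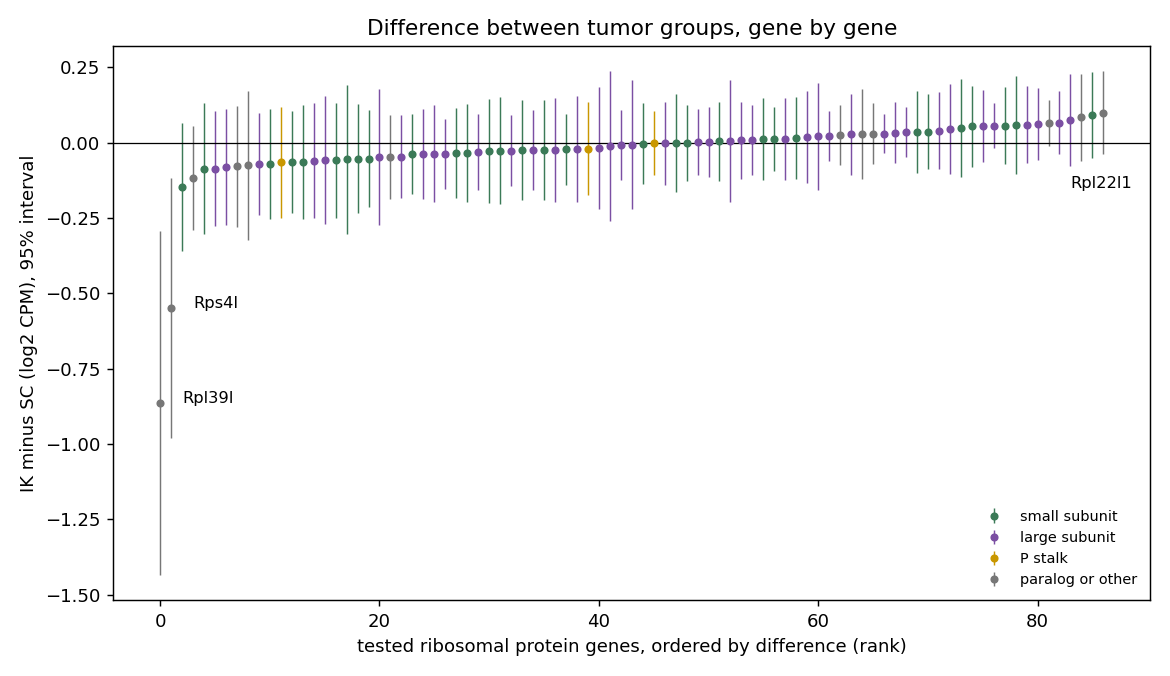
Difference in log2 CPM (IK minus SC, 6 tumors each) of the 87 tested ribosomal protein genes in order of size, with 95% intervals from limma, coloured by role. All but Rpl39l and Rps4l have intervals that reach 0, and the subunits are mixed along the order.

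In the small subunit, 11 of 31 genes had a higher and 20 a lower mean in the IK tumors, with a median difference of -0.02 and 0 genes at an unadjusted p under 0.05. Below, levels are the lowest, median and highest of the 6 tumors of a group. Rps29, a small zinc-binding protein of the head of the subunit, had the largest negative difference of a canonical gene, with 7.32, 7.81 and 8.12 log2 CPM in the IK tumors and 7.83, 7.93 and 8.04 in the SC tumors. Of the IK tumors, 4 lay below the lowest SC tumor, IK3 furthest, and IK2 lay above all others, and the difference was -0.15 (95% interval -0.36 to 0.07). Rps20, also of the head, measured 7.89, 8.31 and 8.66 log2 CPM in the IK tumors and 8.24, 8.42 and 8.53 in the SC tumors, a difference of -0.09 (95% interval -0.30 to 0.13). Here too the IK range enclosed the SC range. At the other end stood Rps6, the subunit's substrate of the S6 kinases, with 5.16, 5.24 and 5.53 log2 CPM in the IK tumors and 5.10, 5.19 and 5.34 in the SC tumors. Its difference of 0.09 (95% interval -0.05 to 0.23) was the largest positive one of a canonical gene, with overlapping groups.

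Rps27, a zinc-finger protein, had the largest spread between tumors of all canonical members, with 6.98, 7.52 and 7.90 log2 CPM in the IK tumors and 7.42, 7.57 and 7.70 in the SC tumors. IK3 was the lowest and IK2 the highest of all 12, and the difference of -0.06 (95% interval -0.30 to 0.19) was small beside that spread. Rps3, at the entry of the mRNA channel, is among the 3 members of highest CPM, not scaled by length, with 9.21, 9.42 and 9.68 log2 CPM in the IK tumors and 9.33, 9.38 and 9.47 in the SC tumors. Its difference was 0.04 (95% interval -0.10 to 0.17), and the IK range again enclosed the SC range. For Rps19, whose loss in human causes Diamond-Blackfan anemia, levels were 6.49, 6.92 and 7.08 log2 CPM in the IK tumors and 6.84, 6.92 and 6.94 in the SC tumors. Rps25, known for a role in initiation on viral internal ribosome entry sites, had 7.70, 7.99 and 8.29 log2 CPM in the IK tumors and 7.84, 8.04 and 8.09 in the SC tumors. Groups overlapped for both, with differences of -0.02 (95% interval -0.19 to 0.14) and -0.03 (95% interval -0.20 to 0.14). Rpsa, also known as the laminin receptor, had 6.90, 7.06 and 7.28 log2 CPM in the IK tumors and 6.94, 7.08 and 7.16 in the SC tumors. Its 2 group means were both 7.07.

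Among the 41 large-subunit genes, 21 had a higher and 20 a lower mean in the IK tumors, with a median difference of 0.0013 and again 0 genes at an unadjusted p under 0.05. Rpl31, at the exit of the peptide tunnel, had the largest positive difference with 5.99, 6.27 and 6.54 log2 CPM in the IK tumors and 6.16, 6.18 and 6.20 in the SC tumors. Its SC tumors differed by only 0.04 from lowest to highest and all lay inside the IK range, with a difference of 0.08 (95% interval -0.08 to 0.23). Rpl21 was next, with 3.75, 3.82 and 3.89 log2 CPM in the IK tumors and 3.60, 3.78 and 3.84 in the SC tumors and a difference of 0.07 (95% interval -0.04 to 0.17). SC3 and SC5 lay below all IK tumors, and the other 4 SC tumors lay inside the IK range.

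Rpl4, which lines the peptide tunnel, and Rpl8, near the peptidyl transferase centre, had the highest CPM of all members, not scaled by length. Rpl4 measured 9.89, 9.99 and 10.11 log2 CPM in the IK tumors and 9.92, 9.98 and 10.02 in the SC tumors, and Rpl8 measured 9.66, 9.80 and 9.87 log2 CPM in the IK tumors and 9.71, 9.74 and 9.83 in the SC tumors. Both varied little: all 12 tumors lay within 0.22 log2 units of each other for each gene. Rpl3, which reaches towards the same centre, had the narrowest spread of the canonical genes, with 7.28, 7.38 and 7.44 log2 CPM in the IK tumors and 7.32, 7.35 and 7.38 in the SC tumors. Its interval was therefore the tightest, at 0.03 (95% interval -0.04 to 0.09).

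Rpl5 and Rpl11 form a particle with the 5S rRNA that binds Mdm2 and holds back its action on p53. Rpl5 had 7.70, 7.87 and 8.03 log2 CPM in the IK tumors and 7.74, 7.86 and 7.88 in the SC tumors, and Rpl11 had 6.66, 6.97 and 7.10 log2 CPM in the IK tumors and 6.86, 6.93 and 6.99 in the SC tumors. Neither separated the groups, with differences of 0.03 (95% interval -0.07 to 0.13) and 0.0072 (95% interval -0.12 to 0.14). Among 10 genes of nucleolar stress and p53, 3 had a lower mean in the IK tumors, and the p53 target Cdkn1a had 6.24 ± 0.43 against 5.90 ± 0.22 log2 CPM (IK, SC; SD, n = 6 each; limma adjusted p = 0.461). Rpl13a, known in human cells for leaving the ribosome to block translation of inflammatory mRNAs, had 8.997, 9.28 and 9.53 log2 CPM in the IK tumors and 9.16, 9.28 and 9.34 in the SC tumors. Rpl38, needed in mouse for translation of a subset of Hox mRNAs, had 6.32, 6.88 and 7.11 log2 CPM in the IK tumors and 6.76, 6.87 and 7.01 in the SC tumors. Both spanned wider in the IK than in the SC tumors, with differences of 0.02 (95% interval -0.13 to 0.17) and -0.05 (95% interval -0.27 to 0.18). Rpl10, added late in the making of the large subunit, had 6.08, 6.19 and 6.49 log2 CPM in the IK tumors and 6.21, 6.30 and 6.38 in the SC tumors, a difference of -0.05 (95% interval -0.18 to 0.09). Rpl23a, where nascent-chain factors dock, was counted at only 1.81, 2.29 and 2.49 log2 CPM in the IK tumors and 2.05, 2.21 and 2.46 in the SC tumors. Its interval, at -0.01 (95% interval -0.26 to 0.24), was the widest of the large subunit, and its groups overlapped.

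All 3 proteins of the P stalk, the arm that recruits elongation factors, had slightly lower means in the IK tumors. Rplp0, the base of the stalk, had 8.12, 8.35 and 8.45 log2 CPM in the IK tumors and 8.25, 8.33 and 8.39 in the SC tumors. Rplp1 had 8.40, 8.78 and 9.06 log2 CPM in the IK tumors and 8.74, 8.83 and 8.95 in the SC tumors, and its partner Rplp2 had 7.82, 8.23 and 8.32 log2 CPM in the IK tumors and 8.10, 8.20 and 8.26 in the SC tumors. The IK tumors enclosed the SC tumors for each of the 3, and in each IK3 was the lowest of all 12. The differences were -0.0016 (95% interval -0.11 to 0.10), -0.07 (95% interval -0.25 to 0.12) and -0.02 (95% interval -0.17 to 0.14).

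The largest differences belonged to low-level paralogs. Rpl39l (ENSMUSG00000039209, chromosome 16), a copy of the tunnel protein Rpl39 that in mouse is known from the testis, measured -0.58, 0.75, 0.21, 1.29, 0.67 and 0.03 in IK1 to IK6, and 0.92, 1.56, 1.38, 1.45, 1.24 and 1.00 in SC1 to SC6 (log2 CPM). Of the IK tumors, 5 lay below the lowest SC tumor, and IK4 lay among the SC tumors. The means were 0.39 ± 0.65 and 1.26 ± 0.25 (SD, n = 6 each), a difference of -0.86 (95% interval -1.44 to -0.29) or 1.82-fold lower in the IK tumors. It did not pass over all genes (limma, adjusted p = 0.432). These levels rest on 40 to 185 reads per tumor. Rpl39 itself, at 7842 to 12888 reads, had 7.07, 7.37 and 7.81 log2 CPM in the IK tumors and 7.27, 7.42 and 7.48 in the SC tumors. Its difference was 0.0045 (95% interval -0.20 to 0.21), and its group means were 7.39 each. T and cytotoxic marker means in the same IK tumors were 0.71, 3.17, -0.15, -0.25, 0.71 and -0.41 for IK1 to IK6. They were 2.29, 1.99, 2.66, 2.16, 3.39 and 0.58 for SC1 to SC6, so that IK4 was low in these markers and high in Rpl39l. The part of other cell types in the Rpl39l difference was not tested.

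The coding sequences of the pair have 153 bases each without the stop codon and differ at 23, an identity of 85.0%, and 0% of the 50-base windows of Rpl39l occur in another gene, against 86.5% for Rpl39. Both are printed 5′ to 3′ as coding strand from GENCODE M21 (GRCm38), with the bases that differ in capitals.
Rpl39 (chromosome X): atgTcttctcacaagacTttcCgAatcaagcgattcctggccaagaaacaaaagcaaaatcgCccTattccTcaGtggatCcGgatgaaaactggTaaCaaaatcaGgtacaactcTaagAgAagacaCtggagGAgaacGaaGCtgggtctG
Rpl39l (chromosome 16): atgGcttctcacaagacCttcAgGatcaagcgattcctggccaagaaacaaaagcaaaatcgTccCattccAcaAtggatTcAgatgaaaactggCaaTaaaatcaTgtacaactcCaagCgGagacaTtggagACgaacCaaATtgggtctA

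Rps4l (ENSMUSG00000063171, chromosome 6), a copy of the small-subunit gene Rps4x that RefSeq annotates as a transcribed pseudogene, measured 1.20, 1.71, 0.39, 1.15, 1.36 and 1.21 in IK1 to IK6, and 1.77, 1.60, 1.71, 1.87, 2.13 and 1.23 in SC1 to SC6. Of the IK tumors, 4 lay below the lowest SC tumor, SC6, and IK3 was the lowest of all. The means were 1.17 ± 0.43 and 1.72 ± 0.30 (SD, n = 6 each), a difference of -0.55 (95% interval -0.98 to -0.12) or 1.46-fold lower (limma, adjusted p = 0.432), from 76 to 278 reads per tumor. Its transcript is 78.4% identical to that of Rps4x over the aligned bases and shares 14.9% of its 50-base windows with another gene. Rps4x, X-linked in mouse, had 8.48, 8.63 and 8.96 log2 CPM in the IK tumors and 8.54, 8.72 and 8.87 in the SC tumors. Its difference was -0.06 (95% interval -0.23 to 0.11) with overlapping groups. Only IK2 lay above the SC tumors, and the other IK tumors, at 8.48 to 8.64, lay below the SC median of 8.72.

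**Figure D2:**
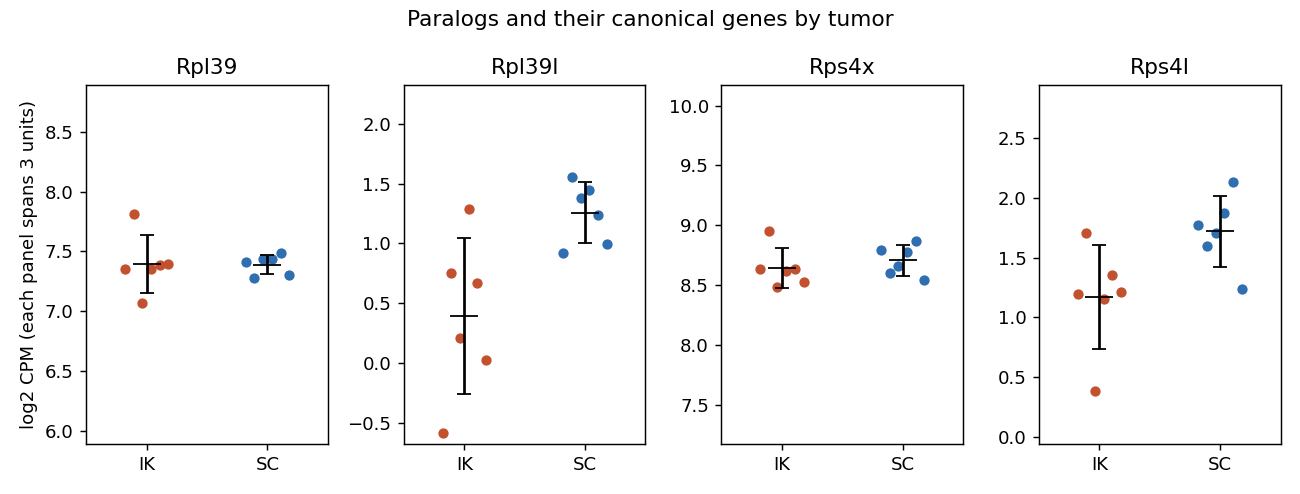
Levels in log2 CPM of Rpl39, Rpl39l, Rps4x and Rps4l in each tumor, 1 point per tumor, with the mean and SD of 6 in black; every panel spans the same number of log2 units. The IK points of Rpl39l and Rps4l lie mostly low. Those of Rpl39 and Rps4x reach below and above the SC points, above them with IK2 alone. The other IK points of Rps4x also lie low.

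The other paralogs were close between groups. Rpl22l1, the copy of Rpl22 whose level rises in mice without Rpl22, had the largest positive difference of all members, with 6.62, 6.88 and 7.04 log2 CPM in the IK tumors and 6.65, 6.74 and 6.87 in the SC tumors, 0.10 (95% interval -0.04 to 0.24). Rpl22, known in mouse for T cell development, had 7.82, 8.12 and 8.30 log2 CPM in the IK tumors and 8.01, 8.10 and 8.12 in the SC tumors, 0.01 (95% interval -0.12 to 0.15). Groups overlapped for both. Rps27l, a p53-responsive copy of Rps27, had 6.45, 6.73 and 6.92 log2 CPM in the IK tumors and 6.60, 6.67 and 6.78 in the SC tumors. Rps27rt, a retrocopy, had 3.59, 4.12 and 4.50 log2 CPM in the IK tumors and 4.04, 4.19 and 4.26 in the SC tumors. Its coding sequence is 100% identical to that of Rps27, so reads inside the coding sequence cannot be told from those of Rps27. The differences of Rps27l and Rps27rt were 0.03 (95% interval -0.12 to 0.18) and -0.08 (95% interval -0.32 to 0.17). Rpl36al and Rpl36a, 87.7% identical in coding sequence, had differences of -0.05 (95% interval -0.19 to 0.09) and -0.02 (95% interval -0.22 to 0.18). Rpl7l1, a copy of Rpl7 found in large-subunit precursors of human cells, had 7.16, 7.23 and 7.32 log2 CPM in the IK tumors and 7.09, 7.15 and 7.25 in the SC tumors, 0.07 (95% interval -0.01 to 0.14). Rpl7 gave -0.02 (95% interval -0.16 to 0.11). The retrocopy Rpl6l, 98.7% identical to Rpl6 over the aligned transcript, gave -0.12 (95% interval -0.29 to 0.05). Rps19bp1, which binds Rps19 in the nucleolus and is not itself a ribosomal protein, had 4.91, 5.12 and 5.36 log2 CPM in the IK tumors and 5.01, 5.05 and 5.06 in the SC tumors, 0.08 (95% interval -0.06 to 0.23). Its IK tumors spread on either side of a narrow SC group.

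Rpl3l and Rps12l1 fell below the filter on low values. Without that filter neither had an unadjusted p under 0.05. Rpl3l, the striated muscle copy of Rpl3, measured -0.55, -0.24, -0.21, -0.08, -0.0082 and 0.37 in IK1 to IK6, and -0.06, 0.30, -0.0073, -0.30, 1.01 and -0.85 in SC1 to SC6, from 29 to 128 reads. Its highest and lowest tumors, SC5 and SC6, were also the tumors with the highest and lowest mean of skeletal muscle markers (4.92 and -1.89). SC1, IK2 and SC2, next highest in these markers at 3.99, 3.87 and 3.70, had Rpl3l at -0.06, -0.24 and 0.30. The part of muscle in the Rpl3l levels was not tested. Rpl3 in the same table ran only from 7.28 to 7.44. Rps12l1 ranged from -0.64 to 0.35 in the IK and -0.87 to 0.04 in the SC tumors.

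What the members shared was a pattern across tumors, not groups. In IK3, 85 of 87 members lay below their own mean over the 12 tumors (45.4% of all tested genes did), and 79 had their lowest level there (10.5% of all). In IK2, 85 lay above their own mean (46.7% of all), and 69 had their highest level there (10.9% of all). For 68 members IK3 was the lowest and IK2 the highest tumor, which held for 3.83% of tested genes. The median deviation over the members was -0.26 log2 units in IK3 and 0.20 in IK2, and between -0.05 (SC2) and 0.05 (SC5) in the other 10 tumors. These 2 tumors were singled out after their values were seen, and no test is given.

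**Figure D3:**
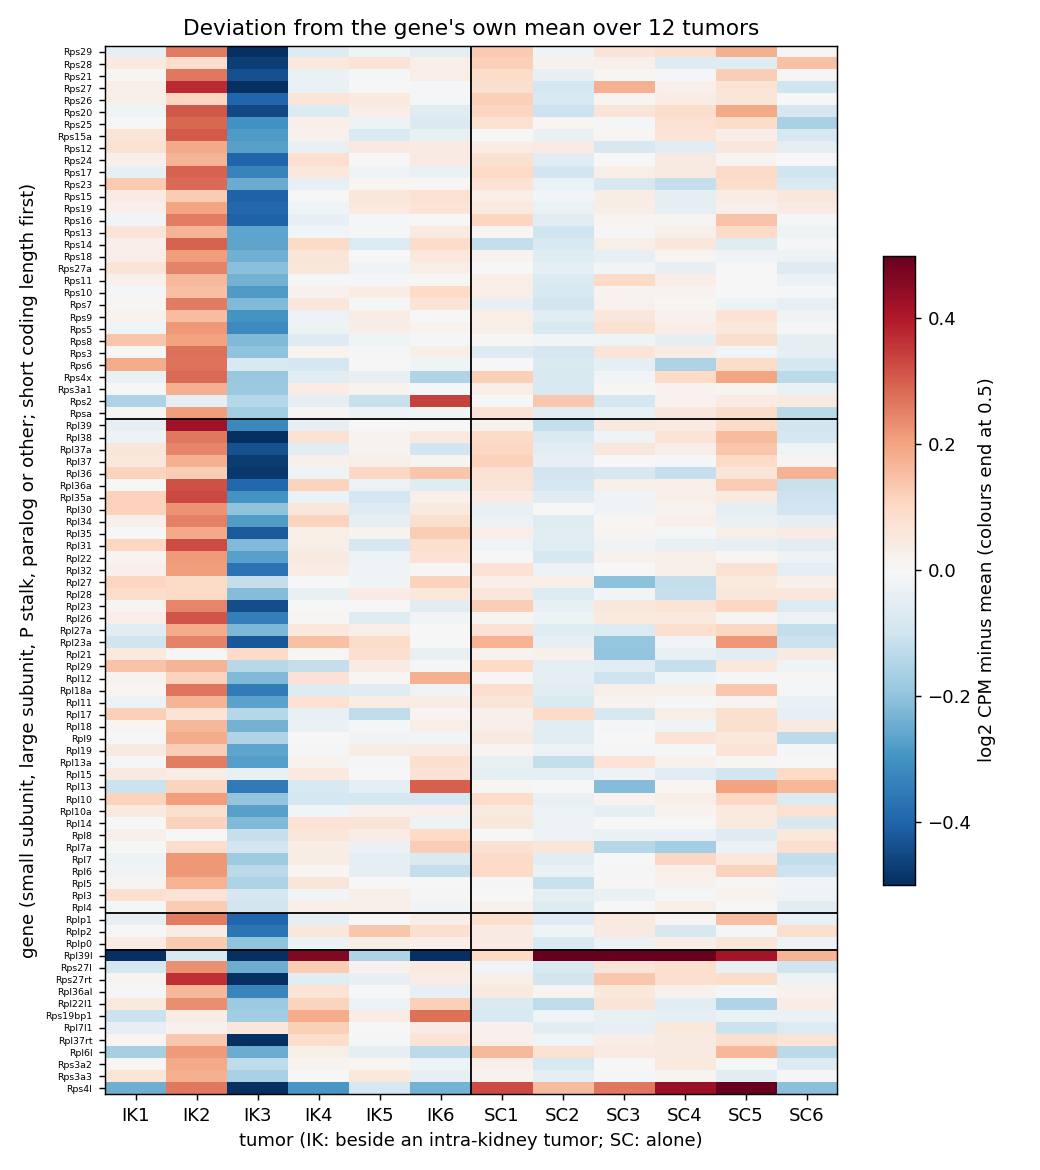
Deviation of each tested member from its own mean over 12 tumors (log2 CPM, colour scale ending at 0.5 either way), by tumor, with genes grouped by role and ordered by coding length. The IK2 column is red and the IK3 column blue through both subunits and the P stalk, and the remaining columns are pale.

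Both subunits took part: 29 of 31 small-subunit and 37 of 41 large-subunit genes were lowest in IK3, with medians of -0.28 and -0.24, and 28 and 31 were highest in IK2, with medians of 0.22 and 0.18. Rps27 deviated by -0.54 in IK3 and 0.37 in IK2, Rpl38 by -0.53 and 0.26, and Rps20 by -0.45 and 0.31. The members' median residual SD was 0.12, as against 0.11 over all genes. Without IK2 and IK3 it was 0.06, as against 0.10 over all genes. The range over all tumors of the 75 canonical genes had a median of 0.48 log2 units, and 0.20 over the other 10 tumors. IK2 and IK3 were picked on the members' own levels, which by itself lowers the members' spread without them.

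Only 8 tested members were not lowest in IK3. Rpl21 was highest there (deviation 0.09), and Rpl7l1 lay above its mean (0.06). Rpl15, of the large subunit, was nearly level (-0.04 in IK3 and 0.04 in IK2), and Rps6 deviated by only -0.08 in IK3 against 0.27 in IK2. The others were Rpl7a, Rpl27, Rps2 and Rpl39l, of which Rps2 and Rpl39l were lowest in IK1.

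Genes near the ribosome moved with the members to differing degrees. Fau, which encodes a small-subunit protein under another symbol, had 7.87 log2 CPM in IK3 and 8.48 in IK2, and Rack1, a scaffold protein bound to the small subunit, had 9.52 and 9.82. Of 62 tested pseudogene rows, 53 were lowest in IK3 and 36 highest in IK2 (medians -0.32 and 0.20). Such rows are copies of the members' sequences and may hold the members' own reads, so they are not a separate measure. Tpt1, also a TOP mRNA, had 10.58 log2 CPM in IK3 and 11.12 in IK2, while Eef1a1, another TOP mRNA, had 11.65 and 11.78. For 76 mitochondrial ribosomal protein genes the medians were -0.09 and 0.03, and for 8 elongation factor genes -0.05 and 0.09. For 29 initiation factors they were 0.02 and -0.02, and for 36 ribosome biogenesis genes 0.02 and -0.02, near 0 and of the other sign. Genes of mTORC1 and TOP mRNA control (n = 18) were at 0.09 and -0.08, and ribosome quality control genes (n = 10) at 0.06 and -0.10, also of the other sign. Marker lists differed between these tumors as well. T and cytotoxic genes had median deviations of -1.51 in IK3 and 1.79 in IK2, myeloid genes -0.21 and 0.46, and fibroblast genes -0.18 and 0.63. In IK4 and IK6, T and cytotoxic genes were at -1.64 and -1.71 while the ribosomal protein genes were at 0.02 in each. The part of cell mixture in the IK2 and IK3 pattern was not tested.

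Transcript length moved with the same pattern. Members with under 300 coding bases (n = 11) had median deviations of -0.48 in IK3 and 0.26 in IK2. With 300 to 450 bases (n = 30) these were -0.33 and 0.22, with 450 to 600 bases (n = 18) -0.24 and 0.17, and with 600 or more (n = 23) -0.18 and 0.17. The shorter the coding sequence, the lower the members lay in IK3, with a Spearman rho of 0.73 over 82 members; for IK2 rho was -0.35. These points share their 2 libraries and are a description.

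Other protein-coding genes showed length steps in the same 2 tumors. With transcripts under 600 bases (n = 123) their medians were -0.29 in IK3 and 0.16 in IK2, with 600 to 1000 bases (n = 571) -0.16 and 0.09, with 1000 to 3000 bases (n = 5664) -0.01 and 0.0052, and with 3000 or more (n = 6045) 0.07 and -0.05. Members of the same transcript classes lay further out, at -0.37 and 0.24 under 600 bases (n = 25) and -0.24 and 0.17 from 600 to 1000 (n = 32). From 1000 to 3000 (n = 23) they were at -0.20 and 0.17, where other genes stood near 0. Transcript length was that of the GENCODE M21 transcript chosen for each gene. Some members of this class have short coding sequences, such as Rps24 (1613 bases, 399 coding) and Rps25 (1280 bases, 375 coding). The classes are therefore not matched in coding length. The 2 members whose chosen transcript had 3000 bases or more, Rps15a and Rps20, were at -0.37 and 0.31. Their coding sequences have only 390 and 357 bases, so their class rests on the transcript chosen. The part of transcript length, and of RNA quality, for which no measure was used here, was not tested.

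**Figure D4:**
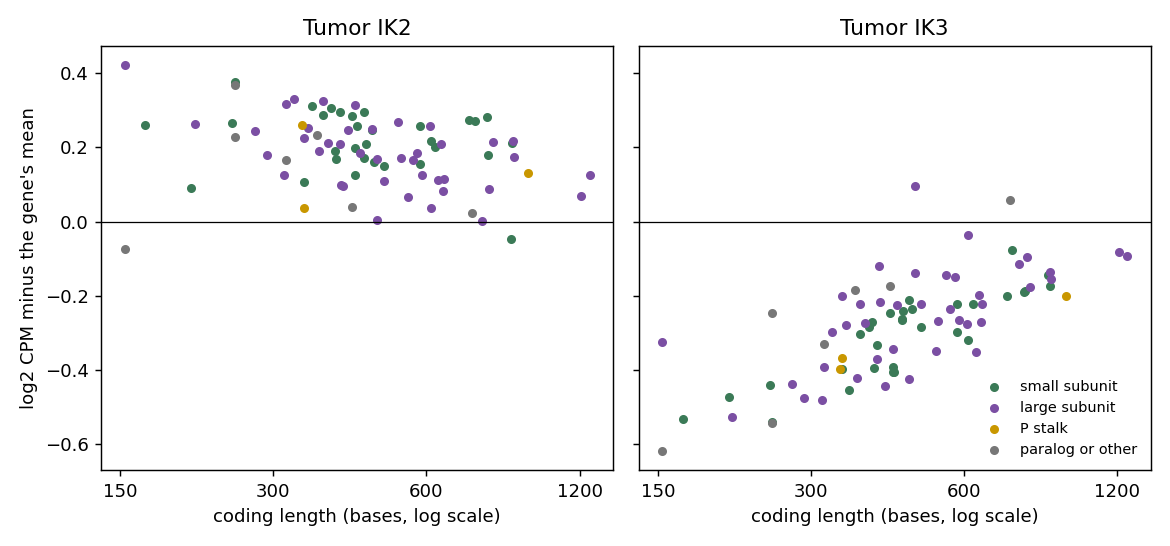
Deviation from the gene's own mean over 12 tumors (log2 CPM) in IK2 and IK3 against coding length in bases (log scale), 1 point per member with a coding sequence (n = 82), coloured by role. In IK3 members under 300 coding bases have a median of -0.48 and those with 600 or more a median of -0.18, with scatter at each length. In IK2 nearly all lie above 0 at every length.

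Start sites were examined because the members moved together. RefSeq promoters (GRCm38.p6) were matched for 64 members, some with more than 1 start, of which any could hold the motif. A TOP start, searched on the transcribed strand as a C followed by at least 4 bases that are C or T, lay exactly at an annotated start in 14 of 64 (21.9%), in 2.90% of promoters of the deposited table's genes and in 3.01% of all promoters. Within 10 bases of the start it was found in 60.9%, 37.2% and 34.4%. Of 67 mitochondrial ribosomal protein genes, 0 had it exactly at the start and 46.3% within 10 bases. The ETS-type letters CCGGAAG, on either strand of the 300-base window, were in 39.1% of members, 19.5% of the table's genes and 9.93% of all, and in 35.8% of the mitochondrial ribosomal protein genes. The E-box CACGTG, which reads the same on both strands, was in 9.38%, 11.6% and 8.09%. A match describes letters and not a site in use.

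The following stretches run 5′ to 3′ from 40 bases before to 20 bases from the annotated start on the strand of the gene (GRCm38.p6), with the TOP run in capitals where there is one. The first 4 are members with the run at the start: Rpl38 and Rps27 followed the IK3 pattern strongly, and Rps6 and Rpl15 did not have their lowest level there. Rpl22l1 and Rpl39l have a run displaced from the start, and Rpl7l1 has none.
Rpl38 (chr11:114668540-114668599, plus strand): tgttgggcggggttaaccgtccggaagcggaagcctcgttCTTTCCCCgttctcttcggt
Rps27 (chr3:90213629-90213688, minus strand): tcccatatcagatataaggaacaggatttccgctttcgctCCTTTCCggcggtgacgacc
Rps6 (chr4:86857348-86857407, minus strand): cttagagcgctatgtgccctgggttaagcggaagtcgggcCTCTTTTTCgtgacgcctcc
Rpl15 (chr14:18270967-18271026, minus strand): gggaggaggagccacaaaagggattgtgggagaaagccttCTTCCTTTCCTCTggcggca
Rpl22l1 (chr3:28805468-28805527, plus strand): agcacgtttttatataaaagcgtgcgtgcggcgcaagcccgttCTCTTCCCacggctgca
Rpl39l (chr16:10170188-10170247, plus strand): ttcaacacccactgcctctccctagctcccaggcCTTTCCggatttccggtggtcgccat
Rpl7l1 (chr17:46782637-46782696, minus strand): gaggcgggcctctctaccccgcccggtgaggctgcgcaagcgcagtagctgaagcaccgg
Over all 63 tested members with a promoter, median deviations in IK3 were -0.29 for the 14 with the run at a start, -0.27 for the 24 with it nearby and -0.26 for the 25 without it. In IK2 they were 0.24, 0.19 and 0.17. Median coding lengths of these classes were 379.5, 432 and 493.5 bases in the same order. The classes were therefore not matched in length, which moved with both deviations, and the part of the run was not tested. The ranges overlapped widely: in IK3 members with the run at a start ran from -0.54 to -0.04, and those without it from -0.53 to 0.06 (Rpl7l1). Runs more than 10 bases from an annotated start were not counted, such as those upstream of Rpl4 and Rps25. The class without a run may therefore hold TOP mRNAs with misplaced starts.

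Levels of the canonical genes per coding length were far from equal in the deposited values. They ran from 6.85 CPM per kilobase of coding sequence (Rpl17) to 1390 (Rps29), with a median of 359 over 75 genes. The 10 genes with under 50% of their coding 50-base windows in another gene lay between 711 (Rpl22) and 1136 (Rpl8), with a median of 979. The 23 genes with 50% to 90% had a median of 526, and the 42 with 90% or more had a median of 214. Low levels were thus found among genes with shared sequence, such as Rpl17 and Rpl23a (10.2) with 100% shared windows and Rps2 (7.42). It is not given in the sources used here how reads matching several genes were counted, so levels of members with copies are uncertain, and 30 members have all windows in another gene. Group differences had medians of -0.03, -0.02 and -0.00082 in these 3 classes of canonical genes.

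**Figure D5:**
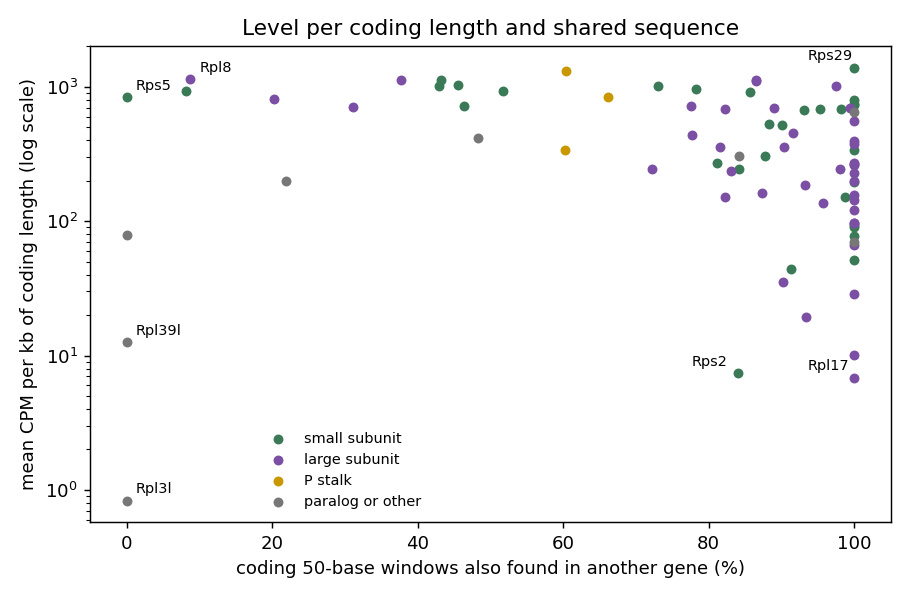
Mean CPM over 12 tumors per kilobase of coding sequence (log scale) against the percent of coding 50-base windows that also occur in another gene of GENCODE M21, 1 point per member, coloured by role. Canonical genes with little shared sequence lie near 1000, and those at the right spread from 6.85 to 1390.

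Other genes of ribosome production and translation were counted in lists. No gene of any list passed an adjusted p of 0.05 (limma, background 0% of all tested genes). Lower means in the IK tumors were found for 1 of 8 elongation factors, 5 of 29 initiation factors, 19 of 36 ribosome biogenesis genes, 6 of 19 RNA polymerase I genes, 7 of 18 genes of mTORC1 and TOP mRNA control, 4 of 10 Myc network genes and 2 of 10 ribosome quality control genes, where all genes gave 46.7%. Median differences of these lists lay between -0.0012 and 0.05. Of 76 mitochondrial ribosomal protein genes, 25 were lower, with a median difference of 0.02, and 5 (6.58%) had an unadjusted p under 0.05, all higher, where 5.86% of all genes did so in that direction.

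By name, Eif4a2, an initiation helicase, had 7.88 ± 0.08 against 7.98 ± 0.05 log2 CPM (IK then SC, SD, n = 6 each, limma adjusted p = 0.432). Rrn3, which recruits RNA polymerase I to the rRNA genes, had 5.87 ± 0.07 against 5.77 ± 0.05 (limma adjusted p = 0.432). In both lists another gene differed more and the other way. Eif1 had 7.97 ± 0.11 against 7.84 ± 0.14 (limma adjusted p = 0.457), and Taf1c had 3.46 ± 0.12 against 3.61 ± 0.11 (limma adjusted p = 0.432). Mycl, a Myc family member, had 1.36 ± 0.62 against 2.18 ± 0.49 (adjusted p = 0.432), the largest difference of these lists. Larp4, an RNA-binding protein of the TOP control list, had 7.43 ± 0.11 against 7.31 ± 0.12 (adjusted p = 0.468). These genes were picked from those of largest difference in each list, and none passed the threshold.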

How the data were processed

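The authors deposited log2 values per Ensembl gene for 12 tumors. Build mm9, TopHat 1.4.1, CASAVA 1.8.2, limma and HTSeq are listed in the submitters' processing notes; per the labels, libraries were TruSeq RNA from total RNA. Settings and strand handling are not given in the sources used here, so overlapping and antisense reads cannot be told apart. The deposited log2 values are log2 CPM with 0.5 reads added, scaled by a library size that differs from the summed reads. This size was 57319000 against 58215590 reads in IK2, and 58433700 against 57923502 in IK3. Shares of reads were taken from recovered reads without this scaling. Whole reads were recovered for 100% of values within 0.001. A symbol was matched for 14004 genes.

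The 14008 genes with a log2 CPM of 0 or more in 6 or more tumors were fitted with limma 3.58.1 (R 4.3.3; empirical Bayes with trend, 2-sided, Benjamini-Hochberg adjusted over all, threshold 0.05) as IK minus SC. The fit was tested on simulated data. Alternatives were limma voom on recovered reads, other scalings, filters, variance models and weights, a replicate block, a muscle covariate, and leaving tumors out; leaving out IK2 and IK3 together was added after seeing the data. Named genes were the 5 largest differences each way, the 5 largest residual SDs, the 3 highest and 3 lowest levels, and a fixed set; those not lowest in IK3, Rpl17, Tpt1, Eef1a1 and the printed promoters were picked with their values in view. The members and lists were chosen with earlier results of these data known. Of the paralog class, 5 retrocopies were added after seeing the table. Coding lengths and shared windows came from GENCODE M21 and promoters from RefSeq, both on another build than the table. All 30 replicate pairs stood further apart than sampling noise (chi-square over degrees of freedom of 13.5 to 169).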

Additional observations from a re-analysis of the deposited data

Results flagged for a closer look

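Of 84 groups of 6 tumors (76 for the 38 named members and 8 for 4 summary measures, the share of reads and medians of levels), 6 held a tumor far from the other 5 by Dixon's test (gap over range above 0.625). Chance flags about 1 in 20 groups. The IK tumors of Rplp2 (IK3 at 7.82 log2 CPM, the others 8.18 to 8.32), Rpl38 (IK3 at 6.32, the others 6.82 to 7.11) and Rps19 (IK3 at 6.49, the others 6.87 to 7.08) had a low IK3. In Rps4x, IK2 was high at 8.96, with the others at 8.48 to 8.64. Among SC tumors, Rpl5 was low in SC2 at 7.74 (others 7.84 to 7.88), and Rps25 was low in SC6 at 7.84 (others 7.996 to 8.09). Of the 6, 4 involve IK2 or IK3, the tumors in which most members were highest or lowest.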

How the results depend on the processing

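No member was called under any of the 24 alternatives, including voom and the fit without both IK2 and IK3. Of all tested genes, 0 were called, as against 1 without the variance trend, 545 with sample weights and 0 to 171 on leaving out each tumor, with the 171 without IK2. The members' median difference ranged from -0.04 to 0.05 and the share difference from -0.0527 to 0.0548 percentage points on leaving out each tumor. The replicate number did not stand out as a pairing when deviations from group means were correlated. Of 12 tumors, 1 correlated best with its own number, and correlations of like numbers ran from -0.31 to 0.45. Other differences between tumors enter these correlations, so they cannot exclude a shared batch. The replicate block called 0 members and 0 genes. Of 36 tested named members, 20 changed sign in at least 1 alternative, in 58 of 862 comparisons, and 0 moved by over 1 residual SD. Members with an unadjusted p under 0.05 numbered 10 without IK3 (11.5%, all genes 8.34%), 5 without IK2 (5.75%, all genes 24.4%) and 5 without both (5.75%, all genes 21.1%). Members with a lower IK mean numbered 69 without IK2, 13 without IK3 and 35 without both. Median centring turned the median difference to 0.0071. Rpl39l and Rps4l could not be tested under a filter of log2 CPM 1 in every tumor and kept sign and an unadjusted p under 0.05 in every other alternative. No result of edgeR or DESeq2 is given: these tools were kept for deposited counts, and the table is log2. Recovered reads were fitted with limma voom. Counting error weighs most on the lowest genes: Rpl17, the lowest canonical one, had 195 to 254 reads per tumor.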
